A study of Mus musculus with 1152 samples.

Results

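Lymphatic endothelial cells (LECs) of the nasopharyngeal lymphatic plexus with the highest levels of interferon-response genes were examined in aged mice. For each cell, the mean of the deposited values of Ifit1, Ifit2, Ifit3, Rsad2, Isg15, Usp18, Oasl2 and Irf7 was taken as a score. The 65 cells with the highest score, 9.91% of the cells analysed, were selected on these measured values and are called interferon-high cells here. They were described against all the other cells. The levels of the 8 rule genes in them are therefore a description and not a finding.

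All cells came from 1 group, aged mice of the c57bl/6 strain with no treatment or genetic change named in the labels. According to the study's methods, nasopharyngeal mucosa of both sexes was pooled, and cells positive for CD31 and podoplanin were sorted into single wells of plates and sequenced with Smart-seq3, a full-length single-cell method. The labels did not give the animal, plate or age in weeks of a cell, and part of the labelled cells were not analysed here. The cells were thus 1 pooled sample with no replicates, and no p-value or standard error was computed from them.

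Type I interferons signal through the receptor pair Ifnar1 and Ifnar2 and the kinases Jak1 and Tyk2, which phosphorylate transcription factors such as Stat2. With Irf9 these form a complex that binds interferon-stimulated response elements in the promoters of interferon-stimulated genes (ISGs). Many ISG products act directly against viruses, others present antigen or sense nucleic acids, and a few, such as Usp18, dampen the pathway. Irf7 is itself an ISG and drives further interferon production. In lymphatic vessels, interferon signalling is known to affect vessel growth and the handling of leukocytes and antigen.

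Values are natural logs of 1 plus reads per 10000 reads of the cell, and differences are means of the interferon-high cells minus means of the other cells in these log units. Differences on this scale understate the change of genes with low levels. Reads were not scaled to transcript length, so levels were compared between cells and not between genes. A gene was called higher or lower at a difference of at least 0.3, among the 9666 genes detected in at least 10% of all cells. Shares of cells carry exact (Clopper-Pearson) 95% intervals, which cover counting error only, since cells shared 1 pool and reads were counted without collapsing PCR copies.

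The promoters of the genes at the centre of the description are shown first. The selection used no sequence, but the rule genes were taken as interferon-response genes, which are known for the element described above. The motif is therefore not independent of the choice of genes. Sequences are from RefSeq (GRCm38.p6), 5′ to 3′ on the strand of the gene, and span 250 bases before to 50 bases after its start. Capitals mark matches to GAAANNGAAA on either strand, which is a pair of GAAA separated by 2 bases as in an interferon-stimulated response element; overlapping matches run together. Ifit1 and Isg15 are rule genes. Lgals9 and Gbp2 were higher in the interferon-high cells without being part of the rule. The Ifit1 promoter, at chr19:34640639-34640938 on the plus strand, held 2 matches. The Isg15 promoter, at chr4:156200769-156201068 on the minus strand, held 3 overlapping matches. The Lgals9 promoter, at chr11:78984875-78985174 on the minus strand, held 2 matches, and the Gbp2 promoter, shown as an example from a gene cluster and chosen after its values were seen, lay at chr3:142620413-142620712 on the plus strand and held 1.
Ifit1: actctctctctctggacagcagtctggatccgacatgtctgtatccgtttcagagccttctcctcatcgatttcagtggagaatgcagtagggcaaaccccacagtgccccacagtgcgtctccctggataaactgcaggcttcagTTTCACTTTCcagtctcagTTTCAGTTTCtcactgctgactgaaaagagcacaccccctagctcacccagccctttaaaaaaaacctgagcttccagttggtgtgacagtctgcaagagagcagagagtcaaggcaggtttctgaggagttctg
Isg15: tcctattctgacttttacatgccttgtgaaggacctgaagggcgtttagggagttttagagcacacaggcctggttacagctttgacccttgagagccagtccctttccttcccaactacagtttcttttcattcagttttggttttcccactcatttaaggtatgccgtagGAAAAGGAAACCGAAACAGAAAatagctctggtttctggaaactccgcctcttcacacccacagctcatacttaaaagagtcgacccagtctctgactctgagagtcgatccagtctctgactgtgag
Lgals9: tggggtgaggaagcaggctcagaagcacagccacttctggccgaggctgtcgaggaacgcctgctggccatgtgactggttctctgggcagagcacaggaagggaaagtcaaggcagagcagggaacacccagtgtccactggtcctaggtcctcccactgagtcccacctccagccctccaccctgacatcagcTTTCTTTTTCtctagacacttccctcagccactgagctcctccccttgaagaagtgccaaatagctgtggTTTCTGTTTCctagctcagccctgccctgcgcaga
Gbp2: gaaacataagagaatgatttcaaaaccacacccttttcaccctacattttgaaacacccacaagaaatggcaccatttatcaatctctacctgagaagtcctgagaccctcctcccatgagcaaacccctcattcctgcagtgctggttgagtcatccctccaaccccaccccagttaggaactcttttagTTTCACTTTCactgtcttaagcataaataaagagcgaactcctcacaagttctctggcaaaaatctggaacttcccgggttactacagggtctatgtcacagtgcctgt

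Across genes, the motif was found in the promoters of 24 of the 51 higher genes outside the rule that had an entry (47.1%, interval 32.9 to 61.5%). Among kept genes that were not called higher it was found in 3.32% of 7162 (2.92 to 3.76%). Among all 27025 genes of the RefSeq table it was found in 3.99%. A gene was counted if any of its promoters held the motif. Counted per promoter, the share was 3.44% of all 32851 promoters of that table. Of the rule genes, 4 of the 7 with an entry held it: Ifit1, Ifit3, Rsad2 and Isg15. It was not found in these windows of Ifit2, Oasl2 and Irf7, and there was no entry for Usp18, Ifi27, Ifi27l2a and Zbp1. Listed ISGs that stayed within the limit of 0.3 held the motif in 12 of 28 promoters (42.9%, 24.5 to 62.8%), an interval that overlapped that of the higher genes. A match describes these letters in this window and is not a measured binding site.

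The score formed a continuum. In the interferon-high cells it ran from 0.86 to 2.67 with a median of 1.19, and in the other cells from 0 to 0.85 with a median of 0.17. The lowest 3 scores inside the limit were 0.862, 0.857 and 0.856, and the highest 3 outside it were 0.855, 0.847 and 0.831. The step at the limit was 0.00147, so that the cells next to it on either side were nearly alike, whereas the widest step in the whole order was 0.25, after rank 3. In all, 8 cells scored between 1.5 and 2 and 5 above 2, while 56 cells scored 0.

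**Figure D1:**
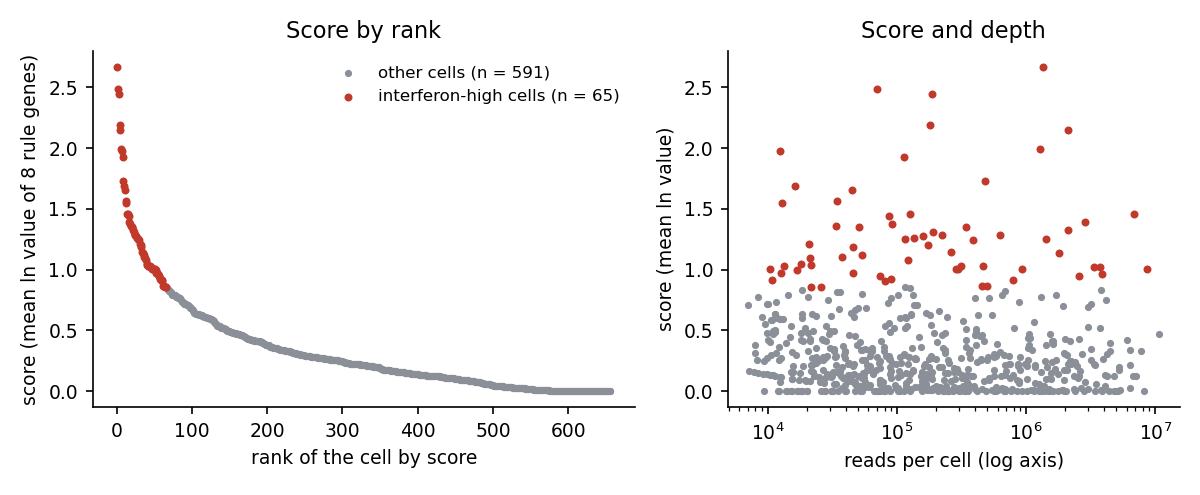
Score of each cell (mean natural log value of the 8 rule genes) against its rank (left) and against its reads on a log axis (right), with interferon-high cells in red and other cells in grey. The score has no step at rank 65, and interferon-high cells occur from 10327 to 8620173 reads.

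Read depth was compared because a shallow cell can miss a transcript and a single read weighs more in it. Interferon-high cells had 10327 to 8620173 reads with a median of 136500, and the other cells had 7046 to 10727631 with a median of 148645. The median number of detected genes was 3831 against 3948, and the median mitochondrial share 1.27% against 1.46%. When cells were ordered by reads and divided into 3 classes of equal size, the shallowest, middle and deepest class held 22, 22 and 21 interferon-high cells. The ranges of reads overlapped almost whole. Over all cells, Spearman's rho of reads and score was -0.12, as a description across cells of 1 pool.

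As the selection required, the rule genes were high. Isg15, a ubiquitin-like modifier that is conjugated to other proteins, ran from 0.02 to 3.65 in the interferon-high cells with a median of 2.85, and from 0 to 4.67 in the other cells with a median of 0.30. It had reads in all 65 interferon-high cells and in 68.7% of the others. Usp18, which removes Isg15 from proteins and limits receptor signalling, averaged 1.61 against 0.30 and was detected in 95.4% against 42.6%. Irf7 averaged 1.48 against 0.30. Ifit1, Ifit2 and Ifit3 encode proteins that bind viral RNA and curb its translation. Their means were 1.33, 0.77 and 1.15 against 0.16, 0.09 and 0.14. Oasl2, of the oligoadenylate synthetase family, and Rsad2, the antiviral enzyme viperin, were each detected in 50.8% of interferon-high cells, against 14.6% and 13.5% of the others. The rule genes thus differed in how evenly they were carried, from Isg15 in every interferon-high cell to Oasl2 and Rsad2 with reads in about as many cells as not.

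Single rule genes overlapped between the groups although the scores did not. The highest Isg15 value of all, 4.67, lay in a cell outside the interferon-high set. Interferon-high cells had reads of a median of 6 of the 8 rule genes (3 to 8), and 13 of them had all 8. Other cells had a median of 2, and 1 of them had all 8. When each rule gene was left out in turn and the 65 highest cells were chosen by the other 7 genes, 56 (without Isg15) to 63 (without Rsad2) cells were shared with the interferon-high set. The left-out gene, which then took no part in the choice, was still higher in the chosen cells for all 8 genes. The 8 had been put together as interferon-response genes with earlier results of these data known. Their going together therefore describes the rule and is not an independent test. Ifit1 averaged 1.20 against 0.17 with detection in 73.8% (61.5 to 84%) against 28.1% (24.5 to 31.9%), Isg15 averaged 2.39 against 0.76, and Irf7 1.26 against 0.33.

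Outside the rule, 70 genes were higher by at least 0.3 and 2 were lower, of 9658 genes. These are 0.725% and 0.0207% of the genes compared. The median difference over all kept genes was -0.0024. The logarithm of the ratio of linear means, with 0.1 reads per 10000 added, gave another split: 9.22% of the kept genes were higher and 14.6% lower by 0.3, against 0.807% and 0.0207% on the main scale with the rule genes included. Of the 78 higher genes with the rule genes, 72 also reached 0.3 when cells were thinned to 20000 reads each, which left out the 9 interferon-high and 79 other cells with fewer reads. In the 3 depth classes taken one by one, 77 of the 78 were above 0 in every class and 48 reached 0.3 in every class. For 59 of the 78, the detection interval of the interferon-high cells lay above that of the other cells. The share of all kept genes with such intervals was not computed, so this count has no background to be read against. All 78 were called on these same cells, and the thinned reads and depth classes are parts of the same data. The counts therefore describe how the calls depend on depth and are not independent support for them. The 78 include the 8 rule genes, whose high values chose the cells, so that for these the counts describe the selection. All 8 of them reached 0.3 in thinned reads.

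**Figure D2:**
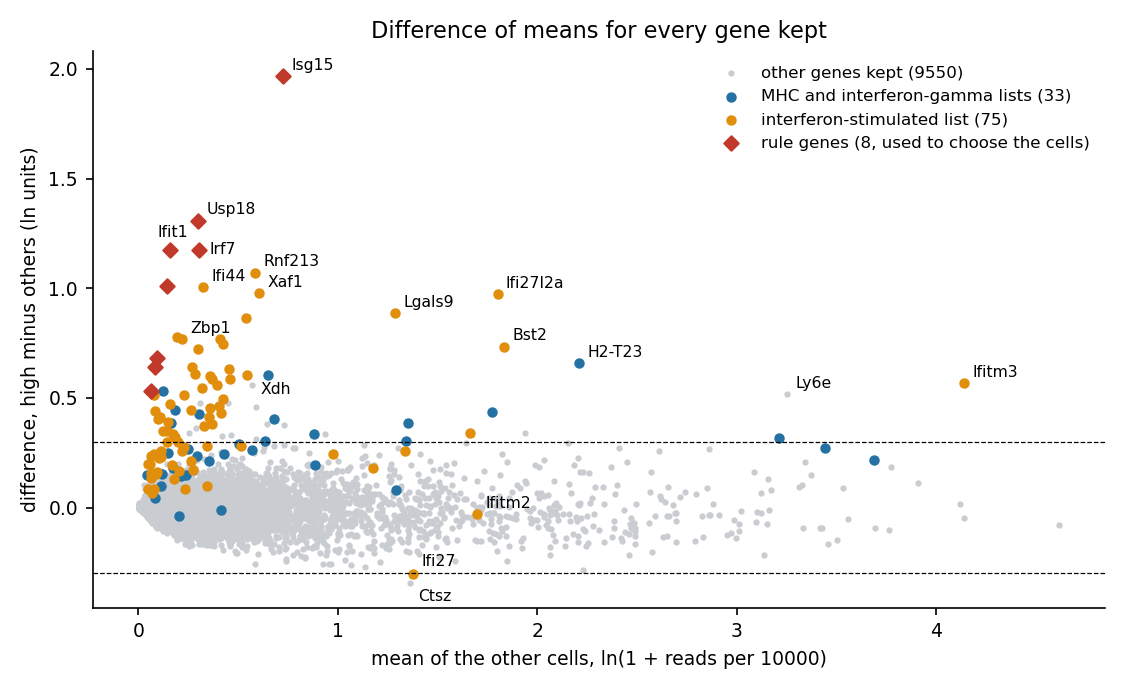
Difference of mean natural log values (interferon-high minus other cells) against the mean of the other cells for the 9666 genes kept. Dashed lines mark a difference of 0.3 in either direction; listed ISGs (orange) and MHC and interferon-gamma genes (blue) make up most points above the upper line, next to the rule genes (red) that chose the cells, and Ctsz and Ifi27 lie below the lower line.

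The higher genes were mostly ISGs. A list of 93 ISGs outside the rule had 89 members in the table, of which 75 passed the detection filter and were kept; Oas3, Mx1, Ifi44l and Ms4a4c were not analysed here. Of the 75, 43 were higher, 1 was lower and 31 lay between the limits, against 0.725% higher over all genes. The differences of 73 of the 75 were above 0, and their median was 0.37 (0.38 in thinned reads). Of the remaining 27 higher genes outside the rule, 13 were on the MHC or interferon-gamma lists, 1 was on the list of nucleic acid sensors and 13 were on no list.

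Rnf213, a giant ubiquitin ligase with a role against intracellular pathogens, had the largest difference of the listed ISGs. It ran from 0 to 3.27 in the interferon-high cells with a median of 1.76, and from 0 to 3.16 in the other cells with a median of 0.39, a difference of 1.07. The ranges were nearly the same while the medians were well apart. Ifi44, an interferon-induced cytoplasmic protein, had medians of 1.27 and 0.00, with reads in 87.7% (77.2 to 94.5%) against 47.9% (43.8 to 52%) of cells and a difference of 1.0. Xaf1, which opposes the apoptosis inhibitor Xiap, differed by 0.98 and Ifi27l2a by 0.97. Lgals9, which encodes the glycan-binding galectin-9, differed by 0.89 (means 2.17 and 1.29).

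Irf9, the DNA-binding partner of Stat2, was detected in 93.8% (85 to 98.3%) against 61.6% (57.5 to 65.5%) of cells, with means of 1.15 and 0.54. Stat2 averaged 0.92 against 0.42; it is a listed ISG beyond the 20 largest and was named after its values were seen, as part of the complex described above. The enzyme Ube2l6, which conjugates Isg15 to its targets, averaged 1.41 against 0.54.

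Others of the 20 ISGs with the largest differences are described by their known roles. Zbp1, a sensor of Z-form nucleic acids that can start necroptosis, ran from 0 to 2.66 with a median of 0.96 in the interferon-high cells and from 0 to 2.92 with a median of 0.00 in the others. It had reads in 78.5% (66.5 to 87.7%) against 32.8% (29 to 36.8%) of cells. Ddx58, which encodes the viral RNA sensor RIG-I, differed by 0.60. Rtp4 and Phf11d differed by 0.78 and 0.74. Parp14, an ADP-ribosyltransferase, differed by 0.77, the tripartite-motif gene Trim30a by 0.64, Ifi35 by 0.63 and the helicase gene Helz2 by 0.58. Of the GTPases that act on pathogen-containing vacuoles, Gbp3, Gbp7 and Irgm1 differed by 0.72, 0.61 and 0.58. All were detected in a larger share of interferon-high than of other cells.

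Some ISGs had reads in nearly every cell of both groups, so that they differed in level and not in detection. Bst2, which encodes tetherin and holds budding virus at the membrane, was detected in 100% and 98% of cells, with medians of 2.73 and 1.88. Ifitm3, a membrane protein that blocks entry of viruses, was detected in all cells of both groups. It ran from 3.62 to 5.50 with a median of 4.77 in interferon-high cells and from 0.63 to 5.64 with a median of 4.23 in the others, a difference of 0.57 that was 0.59, 0.58 and 0.52 in the 3 depth classes.

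The 2 listed ISGs without a positive difference were Ifi27 and Ifitm2. Ifi27, an interferon-induced mitochondrial protein gene, averaged 1.07 in interferon-high and 1.38 in other cells, a difference of -0.30. It was detected in 83.1% (71.7 to 91.2%) against 91.5% (89 to 93.7%) of cells, and in thinned reads in 64.3% (50.4 to 76.6%) against 83.8% (80.3 to 86.9%). The difference was -0.04, -0.59 and -0.28 from the shallowest to the deepest class. Along the score, Ifi27 averaged 1.01 in ranks 1 to 33, 1.14 in ranks 34 to 65, 1.34 in the 66 cells after rank 65 and 1.38 in the rest. Ifitm2, a neighbour of Ifitm3 in family and function, averaged 1.67 against 1.70. Ifi27 and Ifitm2 thus differed in sign from the 73 other listed ISGs, although the 2 means of Ifitm2 were nearly equal. Ifi27l2a, of the same family as Ifi27, differed in the opposite direction to Ifi27.

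**Figure D3:**
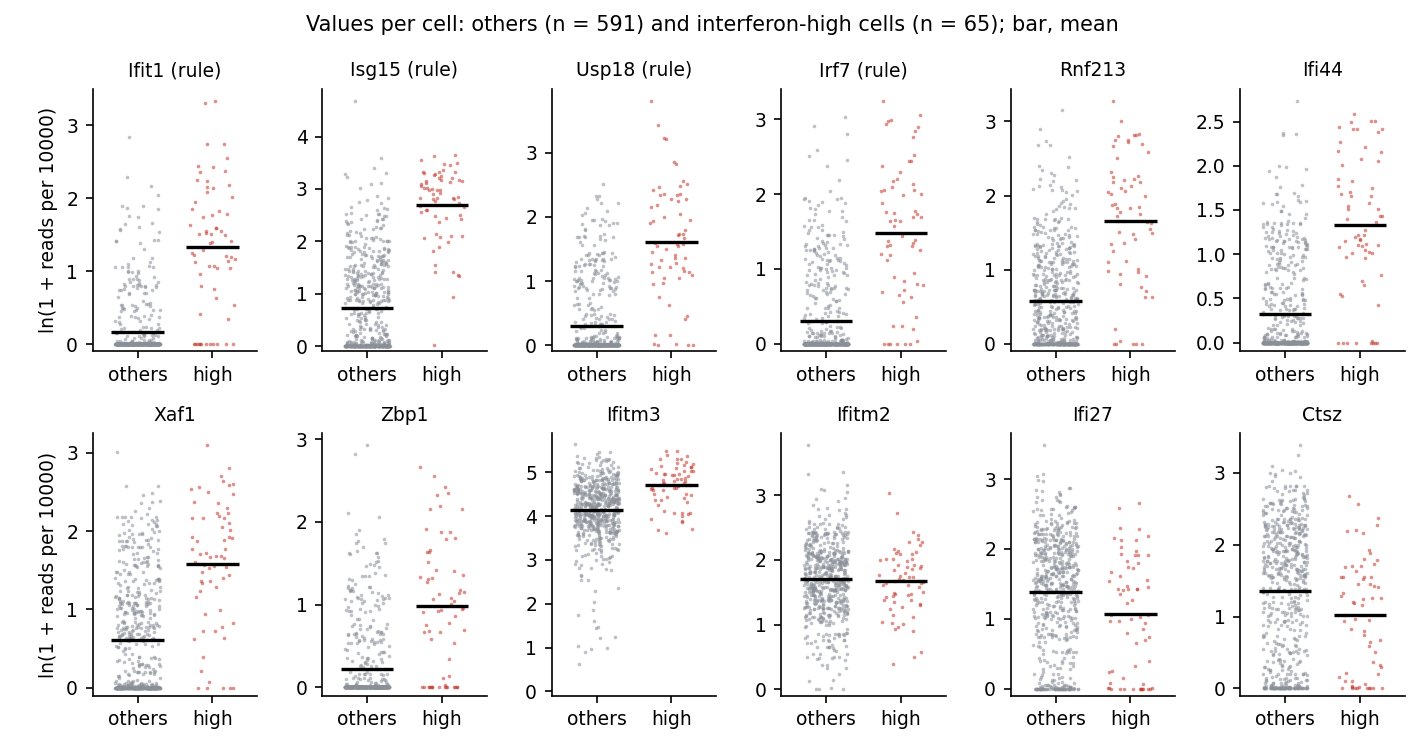
Natural log value of 1 plus reads per 10000 in each cell for 4 rule genes and 8 other genes, in the other cells (grey) and the 65 interferon-high cells (red); bars are means. Means are higher in the interferon-high cells for Rnf213, Ifi44, Xaf1, Zbp1 and Ifitm3, nearly equal for Ifitm2, and lower for Ifi27 and Ctsz.

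Taken over each cell, the mean of the 75 ISGs outside the rule ran from 0.39 to 1.53 with a median of 0.83 in interferon-high cells, and from 0.12 to 0.97 with a median of 0.43 in the others. Interferon-high cells had reads of 25 to 71 of these ISGs (median 49) and other cells of 11 to 64 (median 32). The mean lay above the others' 90th percentile (0.61) in 60 of the 65 cells and above the others' highest value in 14, while 1 cell lay at or under the others' median. Of the 65 cells highest by this mean, 46 were interferon-high cells. In thinned reads the medians were 0.83 and 0.41.

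The same ISGs followed the score on both sides of the limit. The average of their 75 gene means was 0.95 in ranks 1 to 33, 0.75 in ranks 34 to 65, 0.61 in the 66 cells after rank 65 and 0.42 in the remaining cells. Of the 75 genes, 60 were highest in ranks 1 to 33 and 68 were lowest in the last class. Spearman's rho of the ISG mean with the score was 0.67 among the 65 interferon-high cells and 0.58 among the others, and 0.50 (n = 56) and 0.54 in thinned reads. These describe cells of 1 pool, which share a preparation and differ in depth. The limit of 65 cells therefore divided a graded level.

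**Figure D4:**
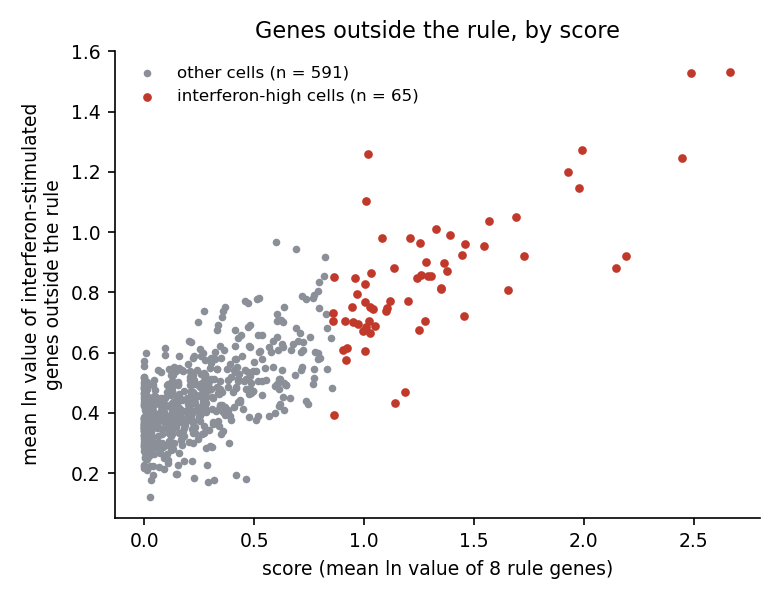
Mean natural log value of the 75 ISGs outside the rule against the score of each cell, with interferon-high cells in red and other cells in grey. The mean goes up with the score in both groups, with medians of 0.83 and 0.43, and 14 interferon-high cells lie above the highest other cell.

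Several higher genes were neighbours in the genome. Of the 70 higher genes outside the rule, 25 (35.7%) lay within 100 kb of another of them (GENCODE M21, GRCm38), against 2.01% of 9482 other kept genes within 100 kb of any of them. With the rule genes included, 33 of 78 did so, in 15 groups, several of which hold rule genes that chose the cells. Pairs are named here for their positions, after their values were seen. The Ifit cluster on chromosome 19 held Ifit2, Ifit3, Ifit3b and Ifit1. Gbp7, Gbp3 and Gbp2 lay together on chromosome 3, and Rsad2 lay 12752 bases from Cmpk2 on chromosome 12. Some of these genes are near-identical copies or overlap, among them Ifit3 and Ifit3b, Igtp and Irgm2, Gbp9 and Gbp4, and the H2-Q and H2-T genes, and how reads shared between them were counted is not given in the sources used here. Their single values are uncertain for that reason.

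Genes of antigen presentation on MHC class I, which interferons of all types raise, were higher in part. Of 21 such genes, 8 were higher, against 0.725% of all genes, and none lower, with a median difference of 0.26. H2-T23, a non-classical class I gene, averaged 2.87 against 2.21, and Psmb8, a subunit of the immunoproteasome that cuts peptides for presentation, averaged 1.26 against 0.65. H2-T22 differed by 0.40. The class II list had 4 kept genes with none past the limit. Its largest difference was that of H2-Ab1, 0.27, with detection in 33.8% (22.6 to 46.6%) against 27.7% (24.2 to 31.5%) of cells. H2-Aa, its partner chain, and Cd74, the invariant chain, each differed by 0.15.

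A list of genes known for induction by interferon-gamma had 8 kept genes, of which 5 were higher, again against 0.725% of all genes, with a median of 0.41. They included Gbp6 (0.66 against 0.13), Gbp4 (0.63 against 0.18) and Serping1 (2.21 against 1.78), which encodes the inhibitor of the first complement protease. Many of these genes also respond to type I interferon, so the list does not tell the types apart.

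Receptors and kinases of the pathway differed little in mean log value. None of the 8 kept genes reached 0.3, and their median difference was -0.01. Over all genes outside the rule only 0.725% were higher, so a short list with none past the limit is not set apart by this. The same holds for each later list without a called gene. Ifnar1 averaged 0.28 in interferon-high and 0.33 in other cells, with detection in 49.2% and 48.2%. Ifnar2 averaged 1.10 and 0.95. The kinases Jak1, Tyk2 and Jak2 differed by 0.06, -0.01 and 0.06. The interferon-gamma receptor chains Ifngr1 and Ifngr2 differed by -0.01 and -0.08. Il10rb, a chain shared by the receptors for interferon-lambda and interleukin-10, differed by -0.10. It was detected in 27.7% (17.3 to 40.2%) against 45% (40.9 to 49.1%) of cells. These intervals did not overlap, but the share of all kept genes with such intervals was not computed, so Il10rb is not set apart by this. Ifnlr1, the specific chain for interferon-lambda, had reads in 0 of 65 interferon-high cells and in 1.69% of the others. A count of 0 of 65 allows 3 cells with a read, or 4.62%, and its exact interval reaches 5.52%. Of 21 interferon genes listed, 1, Ifnz, was in the table, and it was not kept.

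Negative regulators outside the rule gave no higher gene among 5 kept, with a median of 0.02. Usp18, which also dampens the pathway, is a rule gene and was not on that list. Socs3, an inhibitor of Jak signalling, averaged 2.20 against 2.08. Of the 12 sensor and adaptor genes kept, 1 was higher, against 0.725% of all genes outside the rule. This gene, Samhd1, which breaks down nucleotides needed for viral DNA synthesis, averaged 0.93 against 0.45. The median of that list was 0.07. The sensor list left out Ddx58 and Zbp1, which also encode sensors. These were counted as listed ISGs and were higher, as described above.

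Other inflammatory and stress lists were looked at for comparison, again beside the 0.725% of all genes outside the rule that were higher. None of the 16 kept NF-kB target genes was higher, with a median of 0.01; Nfkbia, an inhibitor of NF-kB, differed by 0.26 and, in thinned reads, by 0.32, and the adhesion molecule gene Icam1 by 0.19, while the chemokine gene Cxcl1 differed by -0.08. None of the 16 cell death genes was higher, with a median of 0.02; Mlkl, the executor of necroptosis, and Casp4, an inflammatory caspase, each differed by 0.13. Genes known to respond to tissue dissociation had a median of 0.12, with 26 of 28 above 0, none at 0.3 and 2 (Nfkbia and Dnajb1) at 0.3 in thinned reads; Dusp1, an immediate-early phosphatase gene, and the heat shock gene Dnajb1 each differed by 0.24. The summed level of these 28 genes had a median of 417.4 reads per 10000 in interferon-high cells (26.6 to 1140.9) and 291.01 in the others (12.9 to 1346). Its part in the ISG differences was not tested.

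LEC identity genes were at similar levels in both groups. All 9 identity genes stayed within 0.3, with a median of 0.02. Prox1, the transcription factor that defines LECs, averaged 1.54 against 1.48 and was detected in 100% and 96.8% of cells. Flt4, the receptor for VEGF-C, averaged 2.40 against 2.49, and Lyve1, a hyaluronan receptor, 2.06 against 1.95. Pdpn, which was used for the sort, averaged 1.29 against 1.32, and Pecam1, the gene of CD31 and also used for the sort, 2.15 against 2.19. The junction gene Cdh5 differed by -0.06, Mmrn1 by 0.09, Reln by 0.02 and the chemokine gene Ccl21a by 0.17.

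Markers of other cell types were read as lists. Of 9 haematopoietic genes in the table, 1 was kept and none was higher, and Ptprc, which encodes the pan-leukocyte antigen CD45, also had reads in 0 of 65 interferon-high cells. Reads of any of these 9 genes were found in 33.8% (22.6 to 46.6%) of interferon-high cells and 28.9% (25.3 to 32.8%) of the others, with summed levels of 0 to 7.13 and 0 to 27 reads per 10000. Without the cells that had such reads, 48 ISGs outside the rule were higher with a median difference of 0.36, against 43 and 0.37 with them. All 3 epithelial genes and 3 of 5 mural genes had no reads in interferon-high cells, and Dcn of the fibroblast list differed by 0.09. The blood endothelial list was not low, with median summed levels of 20.8 and 19.4 reads per 10000, and none of its 5 kept genes reached 0.3, with Aqp1 at -0.16. Reads of Xist without Y-linked genes were found in 92.3% and 92.2% of cells and Y-linked reads without Xist in none of either group, although the methods describe both sexes; the groups did not differ in this.

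Subtypes of LECs were compared in clusters built without the rule genes, the listed ISGs and the MHC genes, so that these genes could not set the clusters. Genes only on the interferon-gamma or sensor lists, and higher genes on no list, were not left out and could still take part. At a resolution of 0.8 there were 6 clusters, and interferon-high cells occurred in all of them. They made up 10.8% (6.63 to 16.3%) of cluster 1, led by Gm525 and Stab2, 9.03% (5.03 to 14.7%) of cluster 2, led by Apoe and Clu, and 6.72% (2.95 to 12.8%) of cluster 3, led by Tppp3 and Fndc1. The shares were 10% of 80 cells in cluster 4, led by Fxyd2 and Gdf15, 12.5% of 80 in cluster 5, led by Ptn and Stc1, and 13.04% (4.94 to 26.3%) of 46 in cluster 6, led by Mt1. All intervals of these 6 clusters overlapped. Within each cluster, interferon-high cells had a median ISG difference between 0.27 (cluster 5) and 0.55 (cluster 6), with 64 to 73 of the 75 ISGs above 0. Higher ISG levels were thus found in every cluster, and no marker on the capillary, precollecting and valve lists reached 0.3; Stab2, a scavenger receptor of capillary cells, differed by -0.11, the valve integrin Itga9 by -0.20, Apoe by -0.18 and Cldn11 by 0.13. When the genes left out were kept in the clustering, 34 of the 65 cells fell into 1 cluster of 220 cells (15.5%, 10.9 to 20.9%). The other clusters held 13.98% (7.66 to 22.7%), 8% (2.99 to 16.6%), 4.88% (2.13 to 9.39%) and 3.85% (1.06 to 9.56%). Only the last 2 intervals did not overlap the first. The rule genes that chose the cells could then help to set the clusters, so this gathering is not independent of the selection.

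The share of interferon-high cells also varied with the number that the labels give each cell. In blocks of 96 consecutive numbers, the size of a plate, it ran from 1.33% (1 of 75 cells, 0.0338 to 7.21%) in the third block to 22.2% (4 of 18, 6.41 to 47.6%) in the eighth. The sources used here do not say whether such a block was a plate or how many mice it held. Leaving out each block in turn kept the count of higher ISGs between 41 and 47.

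**Figure D5:**
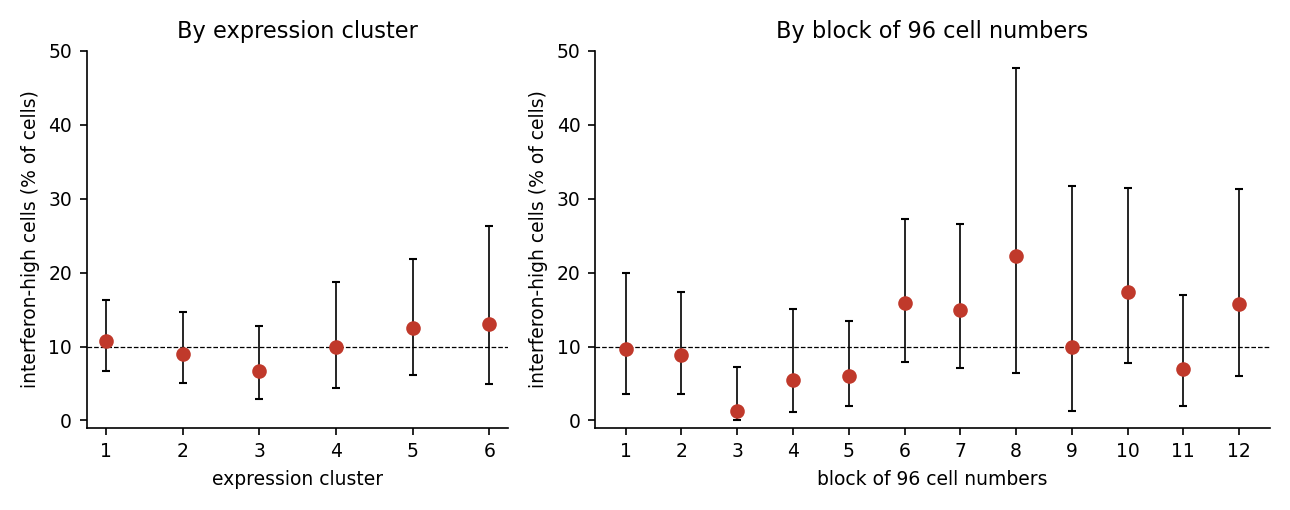
Share of interferon-high cells (percent of cells, points) with exact 95% intervals (bars). Left, the 6 expression clusters built without rule genes, listed ISGs and MHC genes. Right, 12 blocks of 96 consecutive cell numbers. The dashed line is the share over all cells, 9.91%. All cluster intervals overlap, while the third block, at 1.33%, has an interval below the dashed line.

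Genes that the study had examined in ageing were read in the same way. Of 6, Irf7, Zbp1 and Ifitm3 were higher, against 0.725% of all genes outside the rule. Irf7 is a rule gene that chose the cells, and Zbp1 and Ifitm3 are among the 43 higher ISGs already counted. Il33, which encodes an alarmin of the interleukin-1 family, averaged 0.63 against 0.58 with detection in 63.1% and 61.6% of cells, and Mcl1, an inhibitor of apoptosis, averaged 1.01 against 1.04. The list was chosen by the study and is not independent evidence of a direction. Of 9 leukocyte-traffic genes kept, none reached 0.3, with a median of 0.05.

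Genes on no list with the highest differences in thinned reads were Ly6e, Xdh and Trim12a. Ly6e, a membrane-anchored protein that limits entry of some viruses, was detected in all cells and averaged 3.77 against 3.25; its difference was 0.28, 0.53 and 0.76 from the shallowest to the deepest class. Xdh, the xanthine oxidoreductase that makes uric acid, averaged 1.13 against 0.57, and Trim12a 0.79 against 0.31. Cfap43 and Gm20559 followed, with thinned differences of 0.40 and 0.39. Agrn, a basement membrane proteoglycan gene, differed by 0.39 in thinned reads but by 0.05 in the deepest class. Agrn and Isg15 lie on the minus strand of chromosome 4, where Agrn starts 1936 bases downstream of the end of Isg15, and whether reads of Isg15 transcripts were counted for Agrn was not tested. Nampt, an enzyme of NAD synthesis, Fbln5, an elastic fibre gene, and Pnpla2, a triglyceride lipase, had thinned differences of 0.38, 0.37 and 0.37; Pnpla2 stayed under 0.3 on the main scale.

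Few genes were lower. Ctsz, which encodes the lysosomal protease cathepsin Z, ran from 0 to 2.68 with a median of 1.15 in interferon-high cells and from 0 to 3.38 with a median of 1.56 in the others, a difference of -0.34. It was below 0 in each depth class, at -0.36, -0.48 and -0.18. With Ifi27 it made up the 2 lower genes, a count that was 1 without the eighth or the ninth block of cell numbers and 5 without the second, the fifth or the twelfth. In thinned reads the lowest genes on no list were Ctsz (-0.37), the respiratory complex I subunit gene Ndufs8 (-0.34), the cytochrome P450 gene Cyp4b1 (-0.34), the tubulin gene Tubb5 (-0.30) and the dynamin gene Dnm2 (-0.30). Map4, mt-Nd5, Mapk3, Aldh2 and Tuba1a lay between -0.28 and -0.26. Their ranges overlapped fully between the groups.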

How the data were processed

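Single-cell Smart-seq3 libraries of sorted LECs were deposited as 1 table of 23168 genes by 656 cells, of 1152 labelled (65 interferon-high and 591 other cells; 496 not analysed here). According to the methods, the authors aligned reads to mm10 with STAR, counted them with featureCounts, filtered cells on detected genes and mitochondrial reads, and scaled and log-transformed the counts with Seurat (version 4.1.0 per the labels). The deposited values were read as natural log values of 1 plus reads per 10000, although the methods describe log2, because their exponentials minus 1 summed to 10000 in every cell. How reads mapping to several genes were handled is not given in the sources used here.

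On the linear scale, 1 read was set to the lowest nonzero value of each cell; 100% of values were then whole reads within 0.01, which gave the depth of each cell. No per-sample column was left unused. Cells were scored, ranked and compared as differences of mean log values, with a limit of 0.3 for calls and detection in at least 10% of all cells. Thinning drew 20000 reads per cell without replacement and left out 88 cells, 9 of them interferon-high. Doublets were not called because the sort placed single cells in wells. Clusters were built in Seurat 5.3.0 (R 4.3.3) on the recovered reads and are named by number. The rule genes, listed ISGs and MHC genes were left out of the variable genes. Promoters were read from RefSeq, and positions from GENCODE M21, in which 22258 symbols were found. Python 3.11.15, numpy 2.4.6, pandas 2.3.3 and scipy 1.17.1 were used, and read recovery, the comparison and the clustering were tested on simulated data.

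The interferon-high set and the gene lists were chosen with earlier results of these data known. Genes named were the 8 rule genes, the 20 ISGs with the largest difference and any at or under 0, the receptors and identity genes, the 3 genes of each other list with the largest absolute difference (fewer are printed where several lists share them or differences were small), and the 10 highest and 10 lowest genes on no list in thinned reads; 1 gene under this rule is not reported here. Alternatives covered the scale, depth, filter, number and scoring of cells, cells left out and clustering settings.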

Additional observations from a re-analysis of the deposited data

How the results depend on the processing

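The share of higher genes (0.807% of kept genes, rule genes included) was 9.22% with the log ratio of linear means, 1.52% at a limit of 0.2 and 0.383% at a limit of 0.5, both limits added after the data were seen. With no filter on low values it was 0.337% (78 genes), and with detection in at least 30% of cells 1.29% (68 genes), since more and fewer genes were compared. Leaving out each block of 96 cell numbers gave 0.817 to 0.941%. The share of lower genes (0.0207%, 2 genes) moved more. It was 0.0517% in thinned reads, 14.6% with the log ratio of linear means, 0.238% with a set of 33 cells, 0 with the next 66 cells added to the set, 0.0931% without cells with a haematopoietic gene, 0.383% at a limit of 0.2, 0 at a limit of 0.5 and 0.0103 to 0.0517% when each block was left out. The count of higher ISGs (43) was 71 with the log ratio of linear means and 24 at a limit of 0.5, and 41 to 47 without each block. The ISG median (0.37) was 0.98 with the log ratio and 0.33 to 0.39 without each block. The cause of these shifts was not tested. By design, the smaller set held 33 cells. A score from thinned reads could not choose the 9 interferon-high cells with fewer than 20000 reads, and it kept all 56 with enough reads. Of the 65 cells, a score standardised per gene kept 62, and scores without 1 rule gene 56 to 63. Median reads, median detected genes and the highest and lowest cluster share stayed within 1.5 times the main value or within its interval, and no alternative reversed the sign of the ISG median. The log ratio of linear means turned the balance of higher over lower genes. No paired analysis was possible because there was 1 group. Depth limits what can be said of genes with few reads in shallow cells, and the spread between mice is unknown.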
